A study of Homo sapiens with 6 samples.

Results

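The untreated state of the leukaemia cell line MOLM-13, grown from human acute myeloid blasts, was described from the 3 control libraries of a series of 6. The other 3 libraries came from cells given the compound 8p and were not used, so no treated against control comparison was made. All 3 control libraries were labelled as MOLM-13 of genotype WT with the treatment Control, harvested after 48 hours in RPMI-1640 medium with fetal bovine serum. The series text describes the replicates as biologically independent, and whether the control cultures received a solvent is not stated in the labels. MOLM-13 is 1 leukaemia-derived line, so its libraries describe that line and not a range of patients.

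MOLM-13 is known to carry a fusion of KMT2A with MLLT3 and an internal tandem duplication in FLT3. KMT2A is a histone methyltransferase that keeps HOX and other developmental genes active, and its fusions recruit elongation and DOT1L complexes to the same genes. Blood cells of the granulocyte and monocyte lineages are specified by transcription factors such as PU.1 (the product of SPI1) and the C/EBP proteins, which switch on granule proteases and surface receptors. Levels are given here in TPM, transcripts scaled to a fixed total per library, computed from the raw read counts and the deposited gene lengths, as mean ± SD of the 3 libraries. A gene was called expressed at a mean of at least 1 TPM, and ranks and percentiles were taken among the 19951 protein-coding genes.

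The libraries held 18834611 to 23485628 counts, of which 97.8% fell on protein-coding genes. Of the 19951 protein-coding genes, 10520 (52.7%) were expressed, 7412 (37.2%) reached 10 TPM, 1525 (7.64%) reached 100 TPM and 5514 (27.6%) had no count in any of the 3 libraries. Counts of members in the lists below stand against these shares. The lists were chosen with earlier results of these data known, so the comparisons are descriptions and not tests. The genes of at least 100 TPM held 69.6% of all transcripts on this scale. Pearson correlations of log2 TPM between libraries, taken across 10294 genes expressed in each library, lay between 0.994 and 0.996; genes are not independent replicates. Replicate 3 stood apart from the other two: it lay at least 1.5-fold below both for 102 genes and above both for 20, against 21 to 24 below and 23 to 32 above for replicates 1 and 2. Its difference from the others followed gene length, with a median log2 difference of 0.03 in the shortest of 4 equal classes of genes and -0.15 in the longest. The part of this length trend in single genes was not tested. Of 330 listed genes of at least 1 TPM, the mean of 1, U2AF1, moved by more than 1.5-fold without replicate 3, and that of 1, XAGE1A, without replicate 2.

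Reads were counted without a stated strand setting, so genes that overlap on opposite strands could share reads. Among genes named below, ELF1, ASH2L, WT1, CCND1, CDKN2A, CIITA, DOT1L, PSIP1, EPHB4, GFI1B, MED12L, MMP9, HOXA4, HOXA7, HOXA11, HLA-DMA, PSPN, GP1BA, CD8B, CD68, KRT18, CLDN7 and TAGLN share exonic bases with an opposite-strand gene whose total was 10% or more of their own counts, and reads there could not be told apart.

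The highest-ranked genes mixed general growth genes with products of the myeloid granule. EEF1A1, a translation elongation factor, ranked first at 14720 ± 435 TPM, and ribosomal protein genes together held 16.8% ± 0.682 of all TPM. Ranks 2 and 4 were mitochondrially encoded cytochrome oxidase subunits, MT-CO3 and MT-CO1. PRTN3, which encodes the neutrophil serine protease proteinase 3, ranked 5 at 8976, 9267 and 9123 TPM in replicates 1, 2 and 3. By exonic length its level was above that of ACTB, cytoplasmic actin, at 8714 ± 194 TPM. The ranges of these genes did not overlap on that scale. With the longest coding transcript as length the order turned, at 6273 TPM for PRTN3 and 9924 TPM for ACTB. SRGN, the proteoglycan core protein that packs proteases into granules, ranked 14 at 6006 ± 448 TPM. ELANE, neutrophil elastase, ranked 19 at 4826, 4837 and 4849 TPM.

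**Figure D1:**
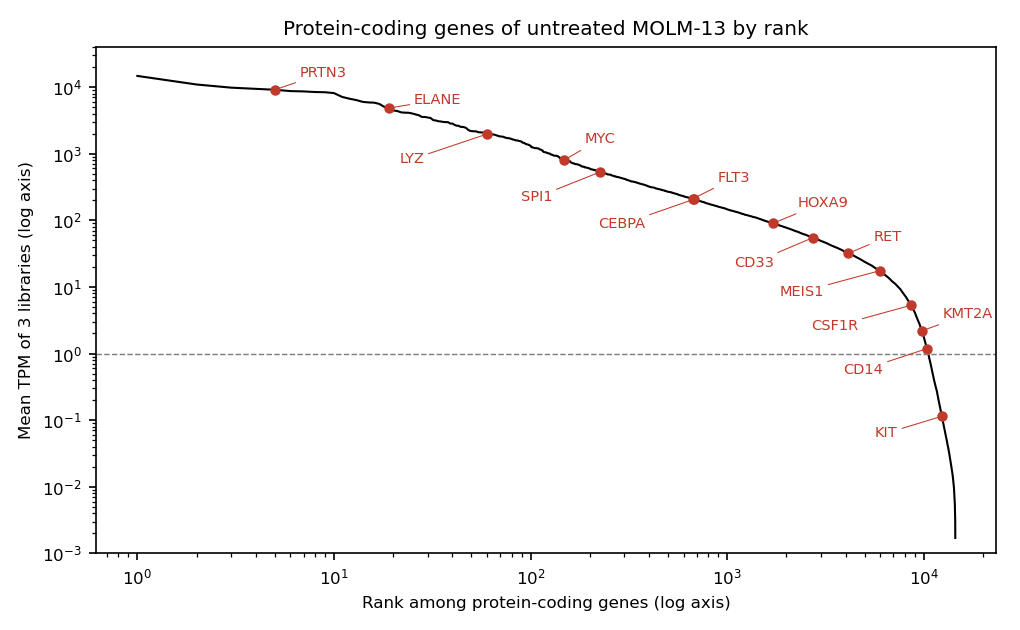
Mean TPM of 3 untreated libraries (log axis) against rank among protein-coding genes (log axis), black line, with selected genes as red points and the 1 TPM threshold dashed. PRTN3 at 9122 TPM sits at rank 5, and KIT at 0.114 TPM lies below the threshold.

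Most granule genes of the myeloid lineage were expressed. Several primary granule genes were high, while others, of primary and later neutrophil granules, were low or without a count. Of 29 granule and secreted myeloid genes, 22 were expressed, and 13 reached 100 TPM, beside 7.64% of all protein-coding genes. Their median was 71.5 TPM, at percentile 89.2 of protein-coding genes, beside 52.7% of all protein-coding genes expressed. The highest of them were genes of primary (azurophil) granules. After PRTN3, SRGN and ELANE came AZU1 (azurocidin) at 2637 ± 67.3 TPM and CTSG (cathepsin G) at 2531 ± 99.3 TPM. LYZ, the secreted lysozyme of monocytes and granulocytes, had 2066, 2077 and 1775 TPM, lowest in replicate 3. CFD, the complement protease adipsin, stood at 1250 ± 81.9 TPM, and RNASE2, an eosinophil and monocyte ribonuclease, at 719 ± 53.9 TPM.

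MPO, the granule peroxidase used to assign blasts to the myeloid lineage, was far lower than its granule neighbours. It had 134, 138 and 120 TPM, a log2 ratio to ELANE of -5.21 ± 0.11 and to LYZ of -3.92 ± 0.03, with no overlap of the ranges. BPI, an antimicrobial protein of primary granules, and CAMP, one of later granules, were at 2.95 ± 0.292 and 1.27 ± 0.552 TPM. The CAMP value came from 18 counts. MMP9, a gelatinase stored in tertiary granules, had 0.159 ± 0.0405 TPM. LTF, LCN2 and MMP8, products of secondary granules, and DEFA3 and DEFA4, alpha defensins of primary granules, had no count in the 3 libraries. For LTF a floor of 3 counts over the 3 libraries corresponds to 0.0372 TPM.

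AZU1, PRTN3, ELANE and CFD lie side by side on chromosome 19 (hg38, chr19:825097-863630, all on the forward strand), and all 4 exceeded 1000 TPM in every library. The genes on either side of this block were chosen after their values were seen. PLPPR3, upstream on the reverse strand, had 579 ± 16.7 TPM, PTBP1 beyond it 361 ± 42.8 TPM, and MED16, downstream, 78.4 ± 3.70 TPM. The step from CFD to MED16, 1250 against 78.4 TPM, was larger than the spread of either gene. The bases before the starts of PRTN3 and CTSG are shown because these are protease genes of very high level with few CpG dinucleotides before the start. They run 5′ to 3′ from 250 bases before the RefSeq start to the last base before the first annotated exon, from the GRCh38.p14 promoters of RefSeq, with CpG dinucleotides in capitals.
PRTN3, chr19:840749-840959, forward strand: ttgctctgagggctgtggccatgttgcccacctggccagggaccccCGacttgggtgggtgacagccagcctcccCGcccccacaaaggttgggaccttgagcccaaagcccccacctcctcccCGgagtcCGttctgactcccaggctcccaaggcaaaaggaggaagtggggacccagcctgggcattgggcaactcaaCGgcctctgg
CTSG, chr14:24576261-24576500, reverse strand: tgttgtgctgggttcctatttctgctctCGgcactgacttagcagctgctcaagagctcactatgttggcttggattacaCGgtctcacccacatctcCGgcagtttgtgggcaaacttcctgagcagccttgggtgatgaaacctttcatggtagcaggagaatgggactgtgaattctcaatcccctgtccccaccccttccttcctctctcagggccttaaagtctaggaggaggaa
The PRTN3 stretch holds 5 CpGs and the CTSG stretch 3.

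Transcription factors of the myeloid programme were expressed at high level. Of 43 myeloid and haematopoietic transcription factors, 36 were expressed (83.7%, against 52.7% of all protein-coding genes). Of the 43, 27 reached 10 TPM and 9 reached 100 TPM, beside 37.2% and 7.64% of all protein-coding genes. The median was at percentile 75.8. SPI1, which encodes PU.1, the ETS factor required for granulocytes and monocytes, led the list at 529, 537 and 523 TPM. IRF8, an interferon regulatory factor that favours monocytes and dendritic cells over granulocytes, followed at 306, 288 and 284 TPM. The 3 libraries of SPI1 all lay above those of IRF8. MYB, a progenitor factor, had 272 ± 6.71 TPM, and ELF1, a broadly expressed ETS factor, 224 ± 10.2 TPM.

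The C/EBP genes covered a wide range. CEBPA, the granulocyte and monocyte commitment factor, had 210, 207 and 206 TPM. CEBPD stood at 117 ± 11.9 TPM and CEBPB, associated with emergency granulopoiesis and monocytes, at 34.9 ± 6.60 TPM, highest in replicate 3 at 42.5 TPM. CEBPE, the factor of terminal granulocyte maturation, had 4.56 ± 0.372 TPM, and CEBPA exceeded it by 5.51 ± 0.11 on the log2 scale within libraries. GFI1, a repressor that supports granulocytes, was at 154 ± 8.00 TPM and overlapped LMO2 at 150 ± 5.97 TPM. LYL1, an LMO2 partner, was at 101 ± 2.23 TPM.

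Further down the list, GATA2, a stem cell and progenitor factor, had 34.5 ± 1.36 TPM and RUNX1, a master regulator of blood formation, 24.4, 23.4 and 20.4 TPM. GATA2, CEBPB, FLI1 and both STAT5 genes held neighbouring places in the order with overlapping ranges. KLF4, a monocyte factor, was at 4.28 ± 0.635 TPM. TAL1 and GFI1B had 1 count each, and IRF4, ERG and MAF had none. GATA1, the erythroid and megakaryocyte factor, had no count, so GATA2 was at least 327-fold higher than the floor of 3 GATA1 counts over the 3 libraries.

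**Figure D2:**
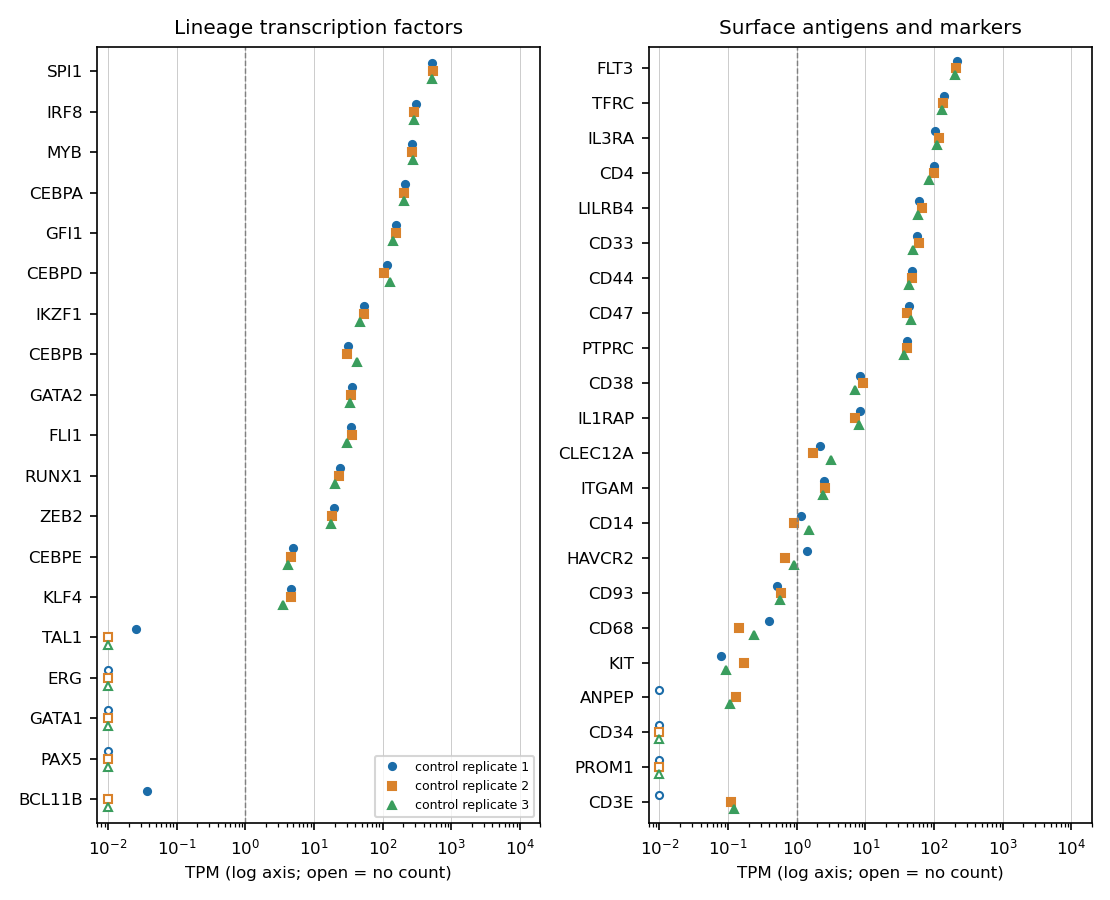
TPM (log axis) of lineage transcription factors (left) and surface antigens and markers (right) in control replicates 1 (circles), 2 (squares) and 3 (triangles), open symbols for no count and the 1 TPM threshold dashed. SPI1 lies above 500 TPM in each library, and CD34 and PROM1 have no count.

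Surface antigens used to describe or target acute myeloid leukaemia ranged from 402 TPM to no count. Of 43 such antigens, 30 were expressed (69.8%, against 52.7% of all protein-coding genes). Of the 43, 7 reached 100 TPM, beside 7.64% of all protein-coding genes. Their median was 15.4 TPM at percentile 68.4. CD74, the MHC class II invariant chain, led at 410, 434 and 362 TPM. CD63, a tetraspanin of granule membranes, and SPN, the sialophorin CD43, followed at 237 ± 10.3 and 236 ± 8.56 TPM with overlapping ranges. CD70, the ligand of CD27, and TFRC, the transferrin receptor, had 134 ± 11.7 and 134 ± 4.78 TPM, also with overlapping ranges.

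Among the antigens aimed at by antibodies or engineered T cells, IL3RA (CD123, the alpha chain of the interleukin 3 receptor) had 102, 118 and 112 TPM. CD33, a sialic acid binding lectin of myeloid cells, had 56.1, 59.4 and 49.5 TPM. The IL3RA libraries all lay above the CD33 libraries by exonic length, but with the length of the longest coding transcript CD33 came to 137 TPM and the log2 ratio of CD33 to IL3RA turned from -1.01 to 0.99, so the order of these antigens was not fixed by the data. LILRB4, an inhibitory receptor of monocytic leukaemia cells, was at 61.7 ± 4.37 TPM, CD44, a hyaluronan receptor, at 46.3 ± 2.50 TPM and CD47, the ligand of SIRPA, at 43.1 ± 3.39 TPM. CD4, carried by monocytes as well as T helper cells, was at 94.4 ± 8.89 TPM.

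Lower values were found for CD38 (8.24, 9.29 and 7.09 TPM), an ectoenzyme of plasma cells and progenitors, and for IL1RAP at 7.83 ± 0.714 TPM. CLEC12A, a lectin receptor of myeloid blasts, had 2.17, 1.70 and 3.13 TPM. CD33 exceeded CD38 by 2.75 ± 0.07 and CLEC12A by 4.60 ± 0.58 on the log2 scale within libraries. HAVCR2 (TIM-3), with 1.40, 0.665 and 0.922 TPM, straddled the threshold. The progenitor receptor KIT had 12 counts in all, 0.114 ± 0.0494 TPM, and the aminopeptidase ANPEP (CD13) 7 counts, 0.0793 ± 0.0695 TPM. CD34, PROM1, IL2RA, CD96 and CD200, several of them markers of leukaemic stem cells, had no count, and the floor for CD34 was 0.0172 TPM. CD33 and its upstream bases are shown next because its start, like those of PRTN3 and CTSG, has few CpGs (source, orientation and capitals as above).
CD33, chr19:51224830-51225063, forward strand: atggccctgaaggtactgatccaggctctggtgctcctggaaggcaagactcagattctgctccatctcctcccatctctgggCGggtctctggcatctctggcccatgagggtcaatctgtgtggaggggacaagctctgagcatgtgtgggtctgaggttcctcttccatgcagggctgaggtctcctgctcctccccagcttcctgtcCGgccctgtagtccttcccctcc
This stretch holds 2 CpGs.

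Monocyte and macrophage markers were mixed. Of 35, 23 were expressed (65.7%, against 52.7% of all protein-coding genes), with a median of 2.61 TPM at percentile 52.1. After LYZ, the highest were CST3 (cystatin C) at 305 ± 10.5 TPM, AIF1 at 281 ± 27.8 TPM and TYROBP, the DAP12 signalling adaptor, at 244 ± 13.7 TPM. S100A9, a calprotectin subunit, had 62.5 ± 2.86 TPM and its partner S100A8 12.5 ± 2.00 TPM, a log2 ratio of 2.34 ± 0.26. CSF1R, the macrophage growth factor receptor, had 5.65, 5.86 and 4.39 TPM. ITGAM (CD11b) and ITGAX (CD11c) overlapped at 2.49 ± 0.0804 and 2.61 ± 0.479 TPM.

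CD14, the lipopolysaccharide coreceptor of mature monocytes, stood just over the threshold at 1.15, 0.922 and 1.49 TPM. CD68 had 0.260 ± 0.127 TPM, and 1.73 TPM when only its exonic bases shared with no other gene were counted as length, so its low value moved with the treatment of the 85.8% of its exonic bases that other genes share. FCGR3A had 3 counts. CD163, MRC1, S100A12, CD300E and the complement genes C1QA, C1QB and C1QC, all of mature monocytes or macrophages, had no count. Other members of the list, named after their values were seen, were well above the threshold: MS4A6A at 97.3 ± 3.92 TPM, CTSS (cathepsin S) at 68.5 ± 1.79 TPM, MS4A7 at 40.8 ± 3.42 TPM and FCGR2A, an Fc receptor, at 18.2, 18.9 and 16.6 TPM. FCGR1A, which has near-identical copies and is uncertain, had 57.7 ± 0.598 TPM. Granule, myeloid factor and monocyte genes were thus present under the label of acute myeloid leukaemia cells. Of the 35 monocyte and macrophage markers, 12 were under 1 TPM, 7 of them with no count. Both shares were below those of all protein-coding genes, of which 52.7% were expressed and 27.6% had no count.

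Genes of MHC class I presentation were mostly expressed and those of class II mostly were not. In class I, 12 of 13 genes were expressed with a median of 74.7 TPM, led by HLA-B at 555 ± 19.5 TPM, HLA-E at 489 ± 19.9 TPM and B2M, the shared light chain, at 458 ± 27.4 TPM. HLA genes are near-identical and highly variable between people, so reads can be lost or split between them and their levels are uncertain. In class II, 3 of 11 were expressed, CD74 at 402 ± 37.1 TPM, HLA-DRA at 9.06 ± 0.944 TPM and HLA-DMA at 3.05 ± 0.410 TPM. CIITA, the transactivator of class II genes, had 0.340 ± 0.0618 TPM.

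Leukocyte adhesion molecules were expressed in 17 of 20 cases (85%, against 52.7% of all protein-coding genes). ITGAL, the alpha chain of LFA-1, had 413, 410 and 323 TPM, lowest in replicate 3. Its beta partner ITGB2 was at 138 ± 15.9 TPM, and SELPLG, the selectin ligand PSGL-1, at 231 ± 19.0 TPM. ITGA4 and ITGB1, which form VLA-4, had 49.2 ± 4.68 and 49.4 ± 1.73 TPM with overlapping ranges.

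The KMT2A fusion itself cannot be seen in counts per gene, which add reads of the normal and fused transcripts. KMT2A had 2.58, 2.31 and 1.70 TPM and MLLT3 3.00, 2.66 and 3.19 TPM. Both were expressed at a low level, near percentiles 51.1 and 52.8. Their order turned with the length used, from a log2 ratio of -0.44 by exonic length to 0.21 by the longest coding transcript.

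All 19 genes of the KMT2A complex and its fusion partners were expressed, with a median of 32.3 TPM. The core methyltransferase subunits WDR5 and ASH2L led at 140 ± 3.95 and 125 ± 3.55 TPM. MEN1 (menin), which tethers KMT2A to chromatin, had 53.7 ± 3.58 TPM, and its partner PSIP1 (LEDGF) 32.3 ± 0.523 TPM. DOT1L, the H3K79 methyltransferase recruited by MLLT3, was at 42.1, 41.4 and 34.1 TPM. The elongation factors followed, with CDK9 at 97.7 ± 3.38 TPM, MLLT1 (ENL) at 87.0 ± 8.99 TPM and AFF1 at 29.2 ± 3.15 TPM. The median log2 difference of replicate 3 from the other two over these 19 genes was -0.25, larger than over most other lists.

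Of 38 genes listed as targets of KMT2A fusions, 32 were expressed (84.2%, against 52.7% of all protein-coding genes). Their median was 34.9 TPM at percentile 80.4. MYC, a transcription factor that drives growth, led at 837, 842 and 738 TPM. LAMP5, a lysosomal membrane protein raised in KMT2A-rearranged leukaemia, had 508, 506 and 455 TPM. CDKN2C, the CDK4 and CDK6 inhibitor p18, was at 292 ± 5.18 TPM, and BMI1, a Polycomb protein, at 191 ± 17.8 TPM. PBX3 and CDK6 had overlapping ranges at 85.8 ± 3.17 and 85.6 ± 5.97 TPM. MEF2C, a MADS factor of myeloid leukaemia, stood at 74.3 ± 5.49 TPM and RUNX2, the bone and plasmacytoid dendritic cell factor, at 28.1 ± 3.52 TPM. MECOM (EVI1) had 1 count, EYA1 1 count, and PROM1 and HMGA2 none.

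Transcription of the HOX genes was confined to 1 of the 4 clusters at the 1 TPM threshold. In the HOXA cluster 9 of 11 genes were expressed, against 0 of 10 in HOXB, 0 of 9 in HOXC and 0 of 9 in HOXD. HOXA9, the homeobox gene most tied to KMT2A fusions, had 87.4, 83.1 and 99.7 TPM. HOXA10 followed at 28.9, 26.8 and 32.0 TPM, and HOXA9 exceeded it by 1.62 ± 0.02 on the log2 scale, a nearly constant ratio in the 3 libraries.

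HOXA11 was at 25.9 ± 1.33 TPM, HOXA5 at 10.9, 10.2 and 9.04 TPM and HOXA13 at 5.41 ± 0.492 TPM. HOXA7 had 4.34 ± 0.988 TPM, and 62.5% of its exonic bases are shared, with HOXA-AS3 on the other strand among the partners, so its reads and those of that antisense RNA could not be told apart. HOXA4 and HOXA2 were under the threshold at 0.777 ± 0.347 and 0.331 ± 0.193 TPM. In the other clusters HOXB7 had 15 counts (0.519 ± 0.270 TPM), HOXC6 17 counts (0.253 ± 0.168 TPM) and the other 26 genes had no count. With floors of 0.0446 to 0.118 TPM, the 9 HOXD genes were not detectable at this depth.

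**Figure D3:**
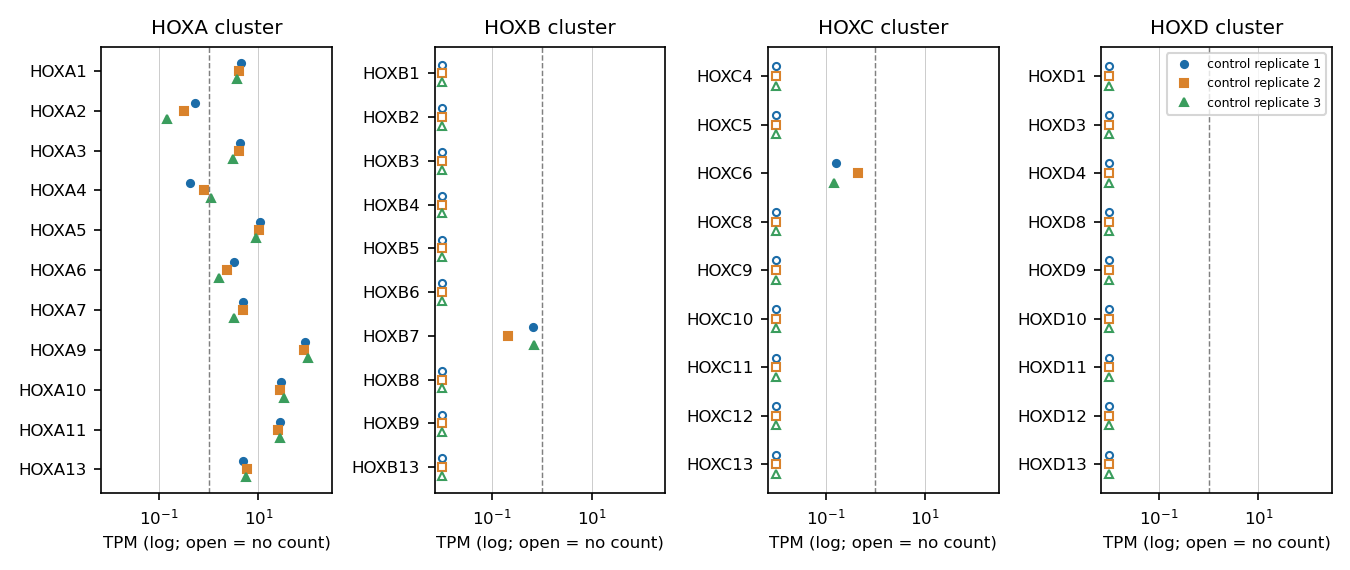
TPM (log axis) of the protein-coding HOX genes, 1 panel per cluster, in control replicates 1 (circles), 2 (squares) and 3 (triangles), with open symbols for no count and the 1 TPM threshold dashed. The 9 expressed genes lie in the HOXA panel, where HOXA9 is highest at 90.1 TPM.

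Of the 9 cofactors that bind DNA with HOX proteins 4 were expressed (44.4%, near the 52.7% of all protein-coding genes): PBX3 at 85.8 TPM, PBX2 at 52.7 ± 9.26 TPM, MEIS1 at 17.5 ± 2.13 TPM and PKNOX1 at 9.94 ± 0.731 TPM. MEIS1, the HOXA9 partner in leukaemia, had 18.4, 19.1 and 15.1 TPM and lay below PBX3 by a log2 ratio of -2.30 ± 0.16. MEIS3 and PKNOX2 had no count. Over the 228 protein-coding genes whose deposited description names a homeobox, 49 (21.5%) were expressed. The highest, IRX3 (chosen after its value was seen), had 142, 130 and 132 TPM, above HOXA9 in each library.

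Receptor tyrosine kinases, the family of FLT3 and RET, were mostly under 1 TPM. Of 58, 15 were expressed (25.9%, against 52.7% of all protein-coding genes). Of the 58, 4 reached 10 TPM and 18 had no count, beside 37.2% and 27.6% of all protein-coding genes. The median was 0.0522 TPM. FLT3, the receptor of early progenitors that is mutated in this line, had 217, 212 and 201 TPM at rank 667. RET, the receptor of the GDNF ligand family and one of the kinases that 8p was made to inhibit, came next at 33.0, 34.3 and 28.6 TPM. FLT3 exceeded RET by 2.72 ± 0.09 on the log2 scale, and RET lay above INSR, the insulin receptor, at 25.2 ± 1.77 TPM without overlap. EPHB4 and RYK followed at 12.4 ± 1.12 and 9.11 ± 0.214 TPM. Among the other class III receptors, CSF1R was at 5.30 TPM, PDGFRB at 0.275 ± 0.0839 TPM and KIT at 0.114 TPM, and PDGFRA had no count.

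The stretches before the starts of RET and KIT are shown because both start in CpG-dense sequence while their levels differed by 8.21 ± 0.54 on the log2 scale (source, orientation and capitals as above).
RET, chr10:43076819-43077026, forward strand: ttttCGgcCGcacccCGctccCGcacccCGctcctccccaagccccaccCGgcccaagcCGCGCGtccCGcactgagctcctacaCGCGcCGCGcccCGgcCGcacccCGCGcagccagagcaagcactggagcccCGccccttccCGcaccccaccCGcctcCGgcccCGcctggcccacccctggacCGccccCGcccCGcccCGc
KIT, chr4:54657707-54657917, forward strand: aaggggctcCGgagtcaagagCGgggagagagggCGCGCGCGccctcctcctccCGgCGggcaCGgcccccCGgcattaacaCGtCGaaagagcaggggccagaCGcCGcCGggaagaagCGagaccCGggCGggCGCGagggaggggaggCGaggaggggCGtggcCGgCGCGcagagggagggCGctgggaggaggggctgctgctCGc
Each of these stretches holds 27 CpGs, against 2 to 5 in those of PRTN3, CTSG and CD33.

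Partners of RET were mostly under 1 TPM. RET signals when a GDNF family ligand binds a GFRA coreceptor. Of 10 ligands and coreceptors, 3 were expressed, the ligands NRTN (neurturin) at 5.59, 3.42 and 7.43 TPM, PSPN (persephin) at 2.22 ± 0.161 TPM and ARTN (artemin) at 2.11 ± 0.778 TPM. GFRA3, the artemin coreceptor, had 7 counts (0.179 ± 0.117 TPM), GDF15, the ligand of GFRAL, 4 counts (0.0988 ± 0.116 TPM), and GDNF, GFRA1, GFRA2, GFRA4 and GFRAL had no count. The FLT3 ligand gene FLT3LG had 1 count. The KIT ligand KITLG was at 0.151 ± 0.0921 TPM, and CSF1 had no count.

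Cytokine receptors of the myeloid system were present in part. Of 32, 19 were expressed, 59.4% against 52.7% of all protein-coding genes. After IL3RA, the highest were IL6R at 99.0 ± 8.01 TPM, TNFRSF1B at 98.7 ± 8.75 TPM, IFNGR1 at 95.0 ± 4.07 TPM and TNFRSF1A at 91.9 ± 4.39 TPM, with overlapping ranges between neighbours. The G-CSF receptor CSF3R had 36.7, 35.3 and 28.6 TPM, the GM-CSF receptor alpha chain CSF2RA 34.4 ± 1.07 TPM and the common beta chain CSF2RB 11.4 ± 0.757 TPM. CSF2RB lay below CSF3R by a log2 ratio of -1.55 ± 0.12. IL6ST (gp130), the signalling partner of IL6R, was at 2.96 ± 0.222 TPM. IL1R1, IL18R1, LIFR and IL2RA had no count.

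Of 19 chemokine receptors 6 were expressed (31.6%, against 52.7% of all protein-coding genes). CXCR4, the bone marrow homing receptor, led at 166, 173 and 158 TPM. CCR2, which draws monocytes to inflamed tissue, had 49.4 ± 0.482 TPM, CXCR2 36.8 ± 1.62 TPM and CCR1 22.3 ± 3.15 TPM. Of 13 genes of Toll-like receptor signalling 7 were expressed (53.8%, near the 52.7% of all protein-coding genes), with the adaptor MYD88 at 55.4 ± 9.63 TPM. TLR2 exceeded TLR4 by 1.01 ± 0.07 on the log2 scale, at 12.5 ± 0.625 and 6.22 ± 0.212 TPM. TLR3 and TLR10 had no count.

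The kinases of the Mediator module, CDK8 and its paralogue CDK19, were both expressed, CDK8 being named beside RET in the label of 8p. CDK8 had 48.7, 52.0 and 50.2 TPM and CDK19 17.6, 17.4 and 15.7 TPM, a log2 ratio of 1.57 ± 0.11. Their cyclin CCNC was at 80.2 ± 6.93 TPM. MED12, which activates the kinase, had 26.4, 26.3 and 16.4 TPM, lowest in replicate 3, and MED12L had 1 count.

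Cell cycle and survival genes were broadly expressed. Of 18 growth and cell cycle genes 16 were expressed, with PCNA, the replication clamp, at 1406 ± 65.9 TPM and TOP2A at 205 ± 16.1 TPM. CCND3 was the highest D cyclin at 141 ± 5.63 TPM, against 1.03 ± 0.102 TPM for CCND2 and 0.208 ± 0.0763 TPM for CCND1. CDK4 was at 136 ± 7.69 TPM and CDK6 at 85.6 TPM, but 43.2% of the exonic bases of CDK4 are shared with other genes. MYCL was at 15.6 ± 0.766 TPM and MYCN had no count, so MYC was at least 13254-fold above the floor of 3 MYCN counts over the 3 libraries.

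In the list of the BCL2 family and related cell death genes 17 of 18 were expressed. MCL1, a short-lived survival protein, had 159, 150 and 150 TPM, and BCL2, the target of venetoclax, 38.7, 39.3 and 35.4 TPM. BCL2 lay below MCL1 by a log2 ratio of -2.02 ± 0.08 and above BCL2L1 (BCL-XL) by 1.21 ± 0.29. BCL2A1, a survival gene of mature myeloid cells, had 1.53 ± 0.368 TPM. The effector genes BAX and BAK1 were at 174 ± 4.42 and 141 ± 9.94 TPM. CDKN2A, the p16 and ARF gene, had no count (floor 0.0365 TPM), while its neighbour MTAP had 6.54 ± 0.525 TPM.

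Of 31 genes recurrently mutated in this leukaemia, 30 were expressed, with a median of 54.5 TPM, KIT being the exception. NPM1, a nucleolar chaperone, led at 1789 ± 144 TPM, followed by the cohesin subunit RAD21 at 488 ± 23.1 TPM and the splicing factor SRSF2 at 352 ± 36.8 TPM. IDH2 exceeded IDH1 by 1.84 ± 0.09 on the log2 scale, at 284 ± 9.20 and 79.3 ± 3.14 TPM. WT1, a zinc finger factor used to follow residual leukaemia, had 54.5 ± 3.79 TPM. DNMT3A, the de novo DNA methyltransferase, had 2.22, 2.58 and 1.97 TPM and lay below DNMT3B, at 11.6 ± 1.02 TPM, by a log2 ratio of -2.37 ± 0.10. TET2 was at 4.33 ± 0.491 TPM. U2AF1 had 311, 64 and 1185 counts and has a near-identical annotated copy, so its value of 7.88 TPM is uncertain.

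**Figure D4:**
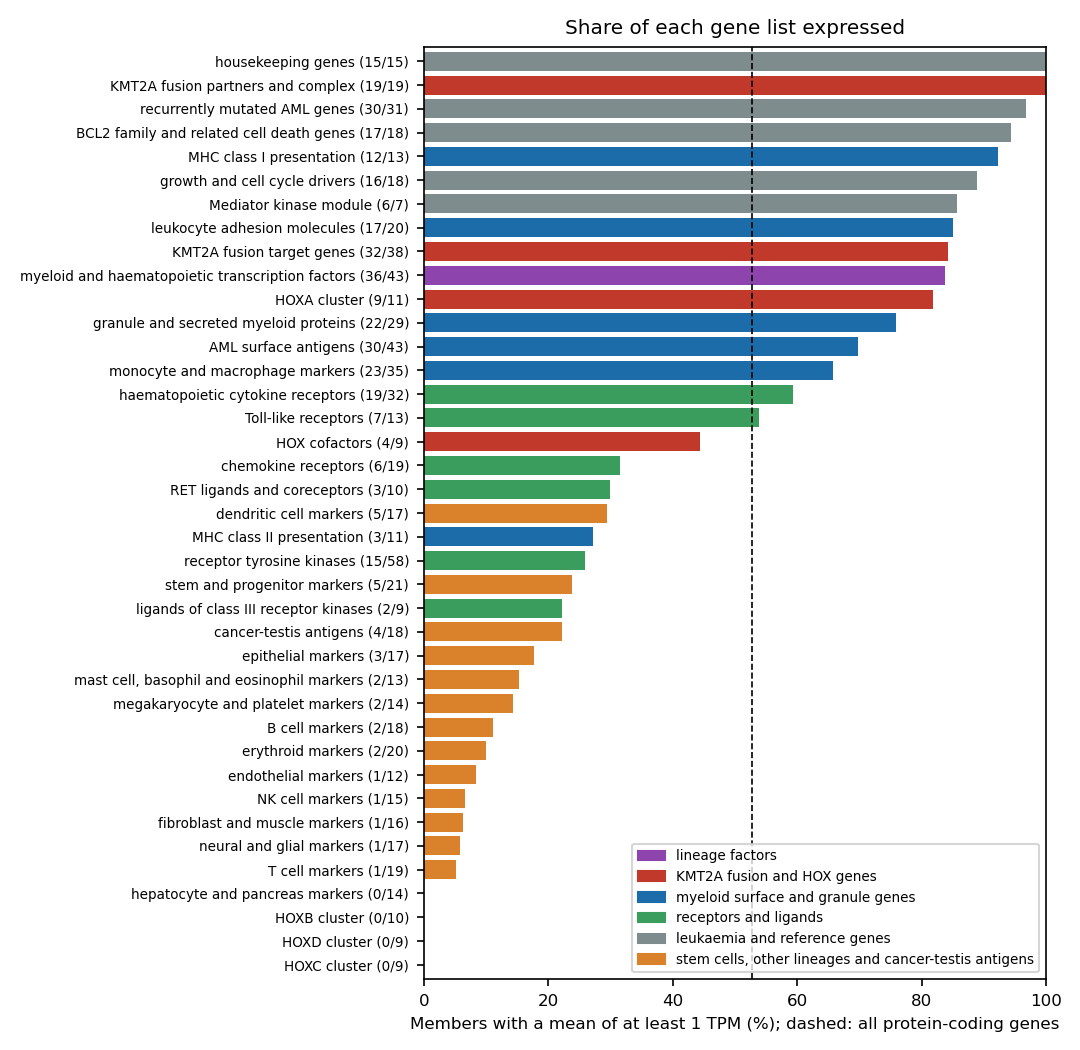
Share of the members of each of 39 gene lists with a mean of at least 1 TPM, in percent, coloured by kind of list, with expressed and total members in brackets and the share of all protein-coding genes dashed at 52.7%. The KMT2A complex, its target genes and HOXA lie above the line, while HOXB, HOXC and HOXD at 0% and HOX cofactors at 44.4% lie below it, as do all lists of stem cell, other lineage and cancer-testis genes.

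Markers of stem cells and of other lineages were mostly under 1 TPM. Of 21 stem and progenitor markers 5 were expressed and 11 had no count. The 5 were LAPTM4B at 172, 171 and 192 TPM, DNMT3B at 11.6 TPM, SOCS2 at 3.12 ± 0.468 TPM, MLLT3 at 2.95 TPM and SPINK2 at 1.66 ± 0.336 TPM. MLLT3 is the fusion partner in this line, and its count adds reads of the normal and fused transcripts. Of 20 erythroid markers 2 were expressed, the erythropoietin receptor EPOR at 27.5 ± 0.711 TPM and TFR2, a transferrin receptor, at 5.98 ± 1.46 TPM. The globin genes HBA1, HBA2, HBB, HBG1, HBG2 and HBZ had no count. Among 14 megakaryocyte markers GP1BA had 2.16 ± 0.549 TPM and GP9 0.649, 1.24 and 1.78 TPM, and without replicate 3 GP9 was under the threshold, leaving 1 expressed marker.

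Few lymphoid markers were expressed. Of 18 B cell markers 2 were expressed, IGLL1, a surrogate light chain of early B cells, at 46.1, 44.8 and 40.7 TPM and CD79A at 1.73 ± 0.381 TPM. MS4A1, PAX5 and EBF1 had no count. Of 19 T cell markers CD3D was expressed, at 8.38, 11.9 and 12.1 TPM, while CD3E had 4 counts and CD3G 4 counts, and CD8A, CD8B and LCK none. Of 15 natural killer cell markers NKG7, a granule protein of cytotoxic cells, was expressed at 67.7, 71.7 and 72.4 TPM, and NCR1 and KLRD1 had no count.

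Of 13 mast cell, basophil and eosinophil markers 2 were expressed, EPX, eosinophil peroxidase, at 2.78 ± 0.421 TPM and TPSB2, a tryptase, at 1.98 ± 0.208 TPM. Dendritic cell markers were expressed in 5 of 17 cases, FLT3 among them, with SIGLEC6 at 11.5 ± 2.86 TPM, AXL at 3.11 ± 0.448 TPM, SPIB at 2.67 ± 0.623 TPM and BATF3 at 1.21 ± 0.0346 TPM. CLEC9A, XCR1 and CD1C, which define conventional dendritic cells, had no count.

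Outside blood, 3 of 17 epithelial markers were expressed, KRT18 at 8.80 ± 0.761 TPM, MUC1 at 3.98 ± 0.779 TPM and CLDN7 at 3.52 ± 0.553 TPM, while EPCAM and CDH1 had no count. TAGLN, at 3.13 ± 0.320 TPM, was the expressed gene of 16 fibroblast and muscle markers, and PECAM1 (CD31), which myeloid cells also carry, of 12 endothelial markers at 47.6 ± 2.62 TPM. MBP, whose locus also gives a transcript of blood cells, was that of 17 neural markers at 13.0 ± 1.05 TPM. None of 14 hepatocyte and pancreas markers reached 1 TPM. Of 18 cancer-testis genes, most of them silent in normal tissues outside the germ line, 4 were expressed, CT45A1 at 105, 127 and 127 TPM, SPAG9 at 21.5 ± 1.33 TPM, XAGE1A and MAGEB2, and 12 had no count. PRAME, an antigen of many leukaemias, had 2 counts. CT45 and XAGE1 genes have near-identical copies, and XAGE1A with 6.46, 33.7 and 13.6 TPM and XAGE1B with 79.2, 10.7 and 14.4 TPM varied in opposite directions between replicates 1 and 2.

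Sequence before the gene starts differed between levels of expression. Promoters of 300 bases (250 before and 50 after the start, RefSeq, GRCh38.p14) were matched for 14905 of 19951 protein-coding genes, or 74.7%, so the values describe the matched genes. The median ratio of observed to expected CpG dinucleotides was 0.368 for genes with no count, 0.651 under 1 TPM, 0.809 from 1 to 10 TPM, 0.865 from 10 to 100 TPM and 0.879 from 100 TPM. The ETS motif CCGGAAG, searched on both strands, occurred in 4.33% of promoters of genes with no count and in 23.5% of those from 100 TPM, with 14.4% over all promoters. TATAAA, the TATA box, ran the other way, at 18.5% and 6.15%, with 9.37% over all. The E-box CACGTG, bound by MYC and other factors, was found in 6.44% and 13.1%, with 8.94% over all. The purine-rich motif GAGGAAG, of the kind bound by PU.1, did not follow level, at 13.7% to 14.7% in the 5 classes. CCGGAAG and CACGTG each hold a CpG, and the median CpG number ran from 7 with no count to 27 from 100 TPM. The part of CpG content in their trends was not tested. All these motif counts are letter matches and not sites of binding.

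Granule and monocyte genes had low CpG values, as did several but not all lists of mostly low genes. The median ratio was 0.263 over the 17 matched granule genes and 0.259 over the 28 matched monocyte genes, below the 0.368 of genes with no count, while the 34 matched transcription factors had 0.865. Among lists with most members under 1 TPM it was 0.122 for mast cell, basophil and eosinophil markers, 0.137 for megakaryocyte markers, 0.146 for erythroid markers and 0.195 for chemokine receptors. Other such lists had high values, among them the HOXD cluster at 0.869 and receptor tyrosine kinases at 0.743. PRTN3 had 0.273, CTSG 0.143 and CD33 0.117, against 1.03 for RET and 0.952 for KIT, whose sequences are given above. The motif GAGGAAG on either strand began 88 bases before the start of PRTN3, 47 and 16 bases before that of CTSG and 11 bases before that of CD33. The CTSG match at 16 runs past its printed stretch, which ends 11 bases before the start. That of CD33 lies wholly past its stretch, which ends 17 bases before the start, and so within an annotated exon. It was present in 10 of 28 matched monocyte genes and 6 of 17 granule genes, beside 14.4% of all promoters. Shares as high were found in lists of other kinds, with 6 of 13 leukocyte adhesion genes, 5 of 9 Toll-like receptor genes, 4 of 9 megakaryocyte and 4 of 8 epithelial markers. No match was found in the 250 bases before RET and KIT, which says only that these letters are not in that window.

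Expressed genes of chromosome 8 had a higher median level than those of each other autosome and of X. Over 10294 protein-coding genes expressed in each library, the median was 22.7 ± 0.830 TPM. For the 367 such genes of chromosome 8 it was 45.4, 45.4 and 43.3 TPM. Chromosome 20 followed at 32.8 ± 1.70 TPM and chromosome 13 at 30.5 ± 1.53 TPM, with overlapping ranges, and the lowest were chromosome 15 at 16.6 ± 0.953 TPM and chromosome 14 at 17.5 ± 0.598 TPM, whose ranges overlapped. As library-scaled counts (CPM) without gene length, the order was chromosome 8 at 67.4, chromosome 13 at 54.0 and chromosome 20 at 46.7, and the lowest was X, followed by chromosome 14 at 30.0 and chromosome 15 at 30.7. MOLM-13 is known to carry extra copies of chromosomes 8 and 13, but copy number was not measured here and its part in these levels was not tested.

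**Figure D5:**
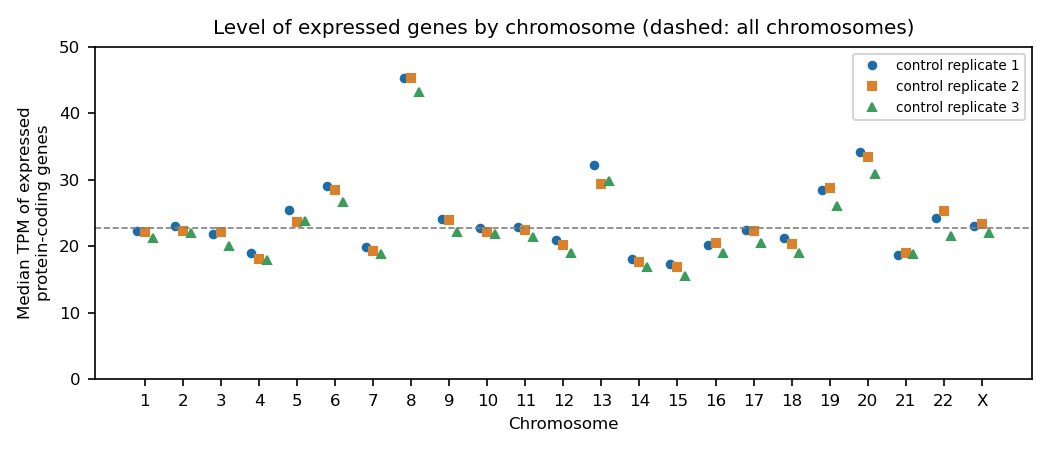
Median TPM of protein-coding genes expressed in each library, by chromosome, for control replicates 1 (circles), 2 (squares) and 3 (triangles), with the median over all chromosomes dashed at 22.7 TPM. Chromosome 8 lies between 43.3 and 45.4 TPM in the 3 libraries, above each other chromosome shown.

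The spread between cultures was smaller at higher levels. The median coefficient of variation was 73.4% for genes under 1 TPM, 12.1% from 1 to 10 TPM, 6.48% from 10 to 100 TPM and 4.82% from 100 TPM. The common biological coefficient of variation, the spread beyond counting noise estimated with edgeR, was 7.75%, and 4.60% without replicate 3. Among the 8 genes of at least 10 TPM with the largest variation, XAGE1B, EIF3CL, XAGE1A, CT45A5 and GPR89A have near-identical copies that can share reads. The other 3 were low in replicate 3: SHANK1 at 30.1, 28.7 and 15.5 TPM, NCR3LG1, a ligand of natural killer cells, at 25.5, 26.5 and 12.7 TPM, and POMK at 14.4, 13.3 and 7.19 TPM. Of 30 gene pairs compared within libraries, 29 had ranges that did not overlap. The share among all pairs of genes was not computed, so this count is not read as particular to these pairs. The ranges were taken by exonic length, and the order of some pairs turned on another scale, as given below. With 3 libraries an exact two-sided sign-flip permutation test cannot go below p = 0.25, so no p-value is given for the pairs.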

How the data were processed

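The table of raw read counts per gene was used as the authors deposited it, with the 3 control columns read and the columns of treated cells left aside. Per the submitters' processing notes, the genome build was hg38 and the tools were featureCounts 1.5.0-p3, edgeR 3.22.5, HISAT2 2.0.5 and DESeq2 1.20.0, in no stated order. Per the labels, either poly(A) selection or rRNA depletion was used, so levels of mitochondrial and histone transcripts depend on an unstated step. The strand setting is not stated in the sources. The deposited gene length, an integer number of bases outside any of the count units, equalled the union of GENCODE 29 exons for all 58735 genes. TPM was computed as counts over length, scaled to the usual TPM total over all genes, with Python 3.11.15, numpy 2.4.6 and pandas 2.3.3, and tested on simulated counts. Spread was estimated with edgeR 4.0.16 in R 4.3.3 (intercept only, TMM, filterByExpr). For a gene with no count, the floor is 3 counts over the 3 libraries, which covers counting error only.

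Members and the 39 gene lists (690 genes, of which BAGE matched no protein-coding row) were chosen with earlier results of these data known. The text names genes marked beforehand in those lists, up to 5 highest members of each list, expressed markers of other lineages, the 20 highest genes, the 8 most variable genes of at least 10 TPM, and genes of 30 fixed pairs, other genes being said to be chosen after their values were seen. A few of these genes are not reported here. Gene families by description were also chosen after the data were seen. Alternatives were CPM without length, other denominators and thresholds, each replicate left out, DESeq2 1.42.0 size factors, and 2 other lengths added after seeing the data.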

Additional observations from a re-analysis of the deposited data

How the results depend on the processing

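No paired analysis was possible because only the control group was used and no groups were compared. The count of expressed protein-coding genes ranged from 9861 at a threshold of 2 TPM to 11084 at 0.5 TPM, against 10520. It lay between 10503 and 10530 when each replicate was left out and was 10650 with unshared exonic length and 10390 with the longest coding transcript, alternatives added after the data were seen. At a threshold of 0.5 TPM, HOXB had 1 expressed member, mast cell, basophil and eosinophil markers 4, and hepatocyte and pancreas markers 1. At 2 TPM, the ligands of class III receptor kinases, megakaryocyte and platelet markers, B cell markers, and mast cell, basophil and eosinophil markers had 1 each. Without gene length (CPM), MHC class II had 5, megakaryocyte and platelet markers 1 and B cell markers 1. With the longest coding transcript as length, ligands of class III receptor kinases and megakaryocyte and platelet markers had 1 each. Megakaryocyte and platelet markers also had 1 when 1 TPM was required in each library, and 1 to 2 when single replicates were left out. For the other lists every count computed stayed within 1.5 times its value.

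The log2 ratio turned without gene length for CDK6 to CDK4 (1.29), SPI1 to IRF8 (-0.46), CD33 to IL3RA (0.80), KMT2A to MLLT3 (1.501) and TLR2 to TLR4 (-0.34), by the construction of that scale, which favours long genes. With the longest coding transcript it turned for CD33 to IL3RA (0.99) and KMT2A to MLLT3 (0.21). That of ITGAM to ITGAX ranged from -0.158 to 0.0596 when single replicates were left out, the upper value being without replicate 2. The longest transcript shifted the median expressed gene by -0.24 on the log2 scale and kept 239 of 330 listed genes within 1.5-fold, and unshared exonic length kept 319. TPM over protein-coding genes alone shifted it by 0.12. The common biological coefficient of variation ranged from 4.60% without replicate 3 to 9.41% without replicate 1. The median CpG ratio from 1 to 10 TPM was 0.807 with classes from the median TPM. The cause was not tested for these shifts. Levels under 1 TPM rest on few counts, with a median coefficient of variation of 73.4%, and orders among them were not read.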

Other observations

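Gene families grouped by their deposited descriptions, chosen after the data were seen, showed further families below and above 1 TPM. None of 388 olfactory receptor genes reached 1 TPM, and 364 of them had no count. Of 21 interferon genes none was expressed and 20 had no count, and of 30 interleukin genes 3 were expressed, with IL16 highest at 4.31 ± 0.285 TPM. Of 55 keratin genes 2 were expressed, KRT10 at 46.7, 37.5 and 41.3 TPM and KRT18, and of 67 protocadherins 2. Machinery of protein synthesis and turnover stood at the other end: 77 of 78 mitochondrial ribosomal protein genes and 47 of 49 proteasome genes were expressed, with medians of 105 and 126 TPM. Of 517 zinc finger proteins named as such 319 (61.7%) were expressed with a median of 2.90 TPM, and 2 reached 100 TPM.

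Some single genes stood out from families that were mostly low. KCNAB2, a potassium channel beta subunit, had 127, 130 and 114 TPM, while 15 of 94 potassium channel genes were expressed. COL23A1, a transmembrane collagen, had 25.2, 27.5 and 23.4 TPM, while 7 of 45 collagen genes were expressed. CYP1B1, a cytochrome P450 enzyme, had 69.7, 65.8 and 66.7 TPM, while 8 of 55 genes of that family were expressed. In the HOXA cluster the antisense RNA HOXA11-AS had 6.55 ± 0.132 TPM and HOTAIRM1 3.12 ± 0.773 TPM, and no antisense RNA listed for the HOXB, HOXC or HOXD clusters had a count.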
